A study of Mus musculus with 6 samples.

Results

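The genes described here are 10 textbook targets and feedback regulators of the transcription factor NF-kB: Tnfaip3, Tnip1, Traf1, Map3k8, Ripk2, Ier3, Sod2, Tnfaip2, Vcam1 and Icam1. They were found on the arrays by gene symbol or synonym. The annotation used gave 19 of 45281 probes to 9 of the 10 genes, and Ripk2, a kinase adaptor downstream of the NOD receptors, was not analysed here because no probe in that annotation carries its symbol. Of the 19 probes, 15 were bright enough to be tested, and they covered 8 genes out of 8905 tested in all. Icam1 was on the arrays but was detected on none of them. The RNA came from MC38, a colon carcinoma line of the mouse background strain C57Bl/6, on single-colour Illumina bead arrays. The labels name no agent other than S100A8/A9, a protein pair released by neutrophils and monocytes. Control cells stayed in normal growth medium, unstimulated cells were deprived of serum for 16 h, and stimulated cells were deprived of serum for 16 h and received 10 µg/mL of S100A8/A9 for 6 h, with 2 arrays for each group. MC38 is 1 line. Nothing in the labels tells if both replicates of a group grew as separate cultures, and the p-values thus reflect the spread of these arrays alone, which may be technical. Whether the unstimulated cells stayed in culture as long as the stimulated ones is also not given.

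NF-kB dimers wait in the cytoplasm bound to IkB proteins until a receptor such as TLR4 activates the IKK kinases, which mark IkB for destruction and free the dimers to enter the nucleus. Among the genes they switch on are their own brakes. A20, the product of Tnfaip3, edits ubiquitin chains on signalling complexes, and ABIN-1, the product of Tnip1, brings A20 to them. Other targets limit cell death or oxidative damage (Traf1, Ier3, Sod2), pass the signal to MAP kinases (Map3k8), or place adhesion molecules for leukocytes on the cell surface (Vcam1, Icam1).

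The promoter windows of these genes are shown first because NF-kB binding sites are what the group has in common in textbooks. RefSeq windows of 250 bases before to 50 bases after the annotated start (GRCm38.p6) were at hand for 7 of the 10 genes, Tnfaip3 having 2. The NF-kB consensus (searched on both strands) was found in 4 of the 7 genes, Tnfaip3, Tnip1, Ier3 and Sod2, and in 4.51% of all 32851 windows of that length. The last 140 bases before the start are printed below in the direction of transcription for those 4 genes, with NF-kB consensus matches in capitals, and for Icam1, whose capitals mark a match to the GAS motif TTCNNNGAA, a STAT factor site. The windows lie at chr10:19015411-19015550 on the minus strand (Tnfaip3), chr11:54962941-54963080 on the minus strand (Tnip1), chr17:35821573-35821712 on the plus strand (Ier3), chr17:13007699-13007838 on the plus strand (Sod2) and chr9:21015800-21015939 on the plus strand (Icam1).
Tnfaip3: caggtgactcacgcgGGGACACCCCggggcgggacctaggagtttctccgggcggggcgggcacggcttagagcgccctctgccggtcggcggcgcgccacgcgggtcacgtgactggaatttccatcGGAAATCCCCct
Tnip1: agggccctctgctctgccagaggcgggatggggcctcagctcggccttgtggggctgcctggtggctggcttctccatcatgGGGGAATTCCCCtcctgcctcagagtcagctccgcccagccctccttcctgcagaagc
Ier3: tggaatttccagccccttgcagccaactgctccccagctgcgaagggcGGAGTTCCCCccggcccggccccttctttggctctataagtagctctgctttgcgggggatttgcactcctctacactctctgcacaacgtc
Sod2: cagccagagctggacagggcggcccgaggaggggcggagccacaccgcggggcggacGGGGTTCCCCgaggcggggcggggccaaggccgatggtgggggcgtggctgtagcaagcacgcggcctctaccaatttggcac
Icam1: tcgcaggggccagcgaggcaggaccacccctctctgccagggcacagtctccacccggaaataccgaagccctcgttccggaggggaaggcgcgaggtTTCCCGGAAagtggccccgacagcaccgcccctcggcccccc

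Tnfaip3 had 2 separate NF-kB matches, from base -125 to -116 and from base -12 to -3, both before its first annotated start. Tnip1 had overlapping matches on both strands between bases -58 and -47. Ier3 had 1 match at -92 to -83, and Sod2 had 1, readable on both strands, at -83 to -74. The AP-1 motif TGANTCA was found in 1 of the 7 genes, Tnfaip3 (bases -136 to -130), and in 7.81% of all windows. The GAS motif was found in 3 of the 7 genes, Tnip1, Icam1 and Sod2, and in 8.3% of all windows. No match to any of the 3 motifs lay in the windows of Traf1, Tnfaip2 or the second start of Tnfaip3, which says only that these letters were not in those windows.

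**Figure D1:**
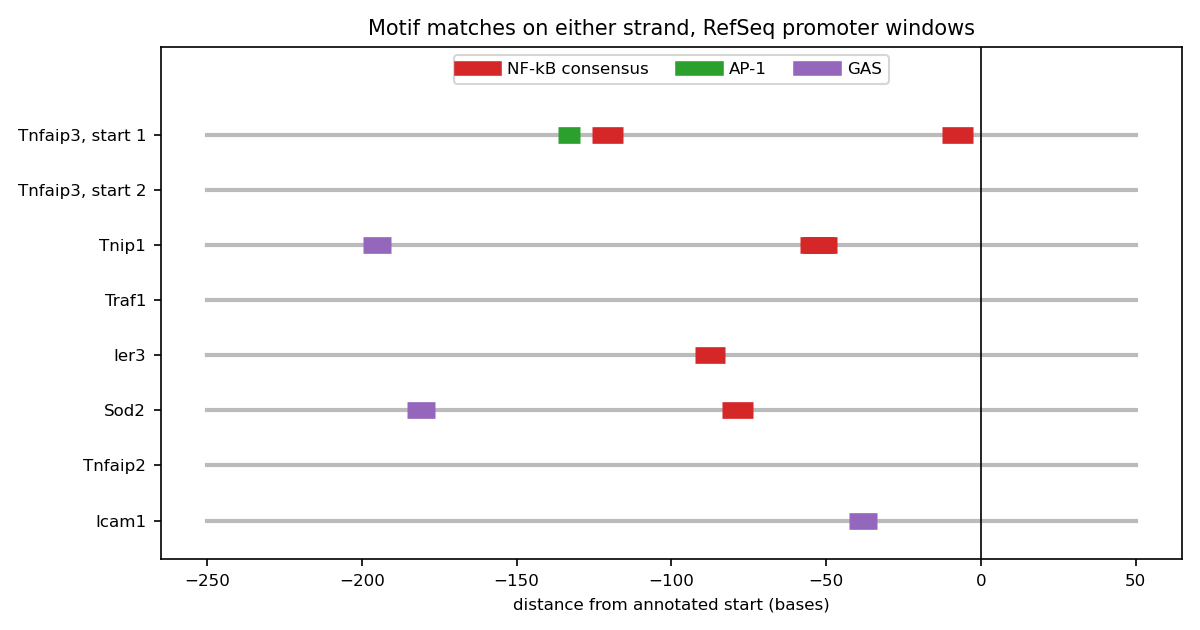
Matches to 3 motifs on either strand in the RefSeq promoter windows of 7 genes (8 annotated starts), drawn by distance from the start in bases. NF-kB consensus matches lie before the start in Tnfaip3, Tnip1, Ier3 and Sod2, and Tnfaip3 has 2 of them.

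Each array had 14877 to 16176 probes above the negative controls (detection p below 0.01, called detected here), and replicate arrays correlated at r = 0.991 to 0.992 across tested genes. Overall brightness differed between arrays: the median raw signal over the tested genes was 567.4 and 654.8 on the stimulated arrays, 706.5 and 652.1 on the unstimulated arrays and 616.9 and 727.9 on the control arrays. Raw signals are therefore given beside log2 intensities that were background-corrected and quantile-normalized, and all tests used the latter. Of 10 epithelial markers, 8, among them Epcam, Krt8, Krt18 and Vil1, were detected on no array, and Cdh1 and Cldn7 on 1 each, so the epithelial identity implied by the label colon carcinoma was not visible in these transcripts. Of 11 leukocyte and endothelial markers with a probe, 9, including Ptprc, Itgam, Pecam1 and Cdh5, were detected on no array and Cd14 on all 6. The log2 of the summed intensities of that list was 9.53 and 9.74 on control arrays, 9.59 and 9.62 on unstimulated arrays and 10.02 and 10.02 on stimulated arrays. Cd14, the only gene of that list that was tested, had means of 9.03, 8.94 and 9.55 in the same order of groups. The sum is thus not read as a share of leukocytes or endothelial cells. The fibroblast list, with 7 of 10 genes tested, was at 13.69 and 14.23, 14.53 and 14.87, and 14.82 and 14.61 in the same order of groups. By limma, 5 of those 7 genes were higher and 1 (Col1a2) lower than control in each serum-deprived group, among them Dcn (3.69-fold in unstimulated and 4.61-fold in stimulated cells) and Pdgfrb (3.36-fold and 2.85-fold). Among all genes, 17.2% were higher and 13.7% lower in unstimulated cells, and 15.9% and 13.1% in stimulated cells. Vim was not called, although its means of 13.65 in control, 14.08 in unstimulated and 13.96 in stimulated cells lie close to the sums. Without Col1a1, undetected in control cells, the 5 become 4. None of the 7 was called between stimulated and unstimulated cells, where 1 was higher at an unadjusted p below 0.05 by limma, beside 3.78% of all genes. The part of these markers in the results below was not tested, and in RNA from a whole culture a larger share of expressing cells and more RNA per cell cannot be told apart.

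The mean level was highest in the stimulated cells for 6 of the 8 tested genes (all but Traf1 and Tnfaip2). The share of all genes with this order was not counted, so the 6 are given as a description only. They also depend on the probe used, as the other Tnfaip2 probes had their highest means in stimulated cells (10.62 and 10.07). Tnip1 lay just 0.06 above unstimulated cells and turned below them with median scaling, which put the median of all genes at -0.13. Against control cells, stimulated cells had higher Map3k8 (at least 2.70-fold after background correction), Ier3 (1.85-fold), Vcam1 (1.72-fold), Tnip1 (1.48-fold) and Tnfaip3 (1.47-fold), 5 of the 8 tested genes, and none was lower (limma, Benjamini-Hochberg over all 8905 genes, adjusted p below 0.05). In this comparison 15.9% of all genes were called higher and 13.1% lower. Unstimulated cells differed from control cells in 4 of the 8, Map3k8, Ier3, Tnfaip2 and Tnip1, all higher, beside 17.2% of all genes called higher and 13.7% lower. Stimulated and unstimulated cells differed in 0 of the 8 by limma, beside 0.0786% of all genes called higher and 0% lower. At an unadjusted p below 0.05, 4 of the 8 (Vcam1, Map3k8, Sod2 and Tnfaip3) lay higher, beside 3.78% of all genes, and limma with a trended, robust prior called 1, Vcam1. These genes were chosen with earlier results of these data known, so the counts are a description only.

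Both arrays of the stimulated group lay above both of the unstimulated group for 5 of the 8 genes, and below for 1, Tnfaip2. Among all tested genes these shares were 18.5% above and 20% below. Unstimulated arrays lay above control arrays for 6 of the 8 genes and below for 2, beside 34.7% and 33.8% of all genes. Stimulated arrays lay above control arrays for 7 and below for 1, beside 32.8% and 33% of all genes. The median log2 fold change of the 8 was 0.36 for stimulated versus unstimulated cells, 0.34 for unstimulated versus control cells and 0.56 for stimulated versus control cells, and over all tested genes it was -0.01, -0.00 and -0.01. Map3k8 entered the test through the serum-deprived arrays, where it was detected, and not through the control arrays, which favors a difference from control. Over the other 7 genes, which were detected on all 6 arrays, the medians were 0.34, 0.18 and 0.56, and 0, 3 and 4 were called, all higher. In the same order of comparisons, the first group lay above the second without overlap for 4, 5 and 6 of these 7, and below for 1, 2 and 1. The 3 comparisons share arrays in pairs, so they are not independent of each other.

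**Figure D2:**
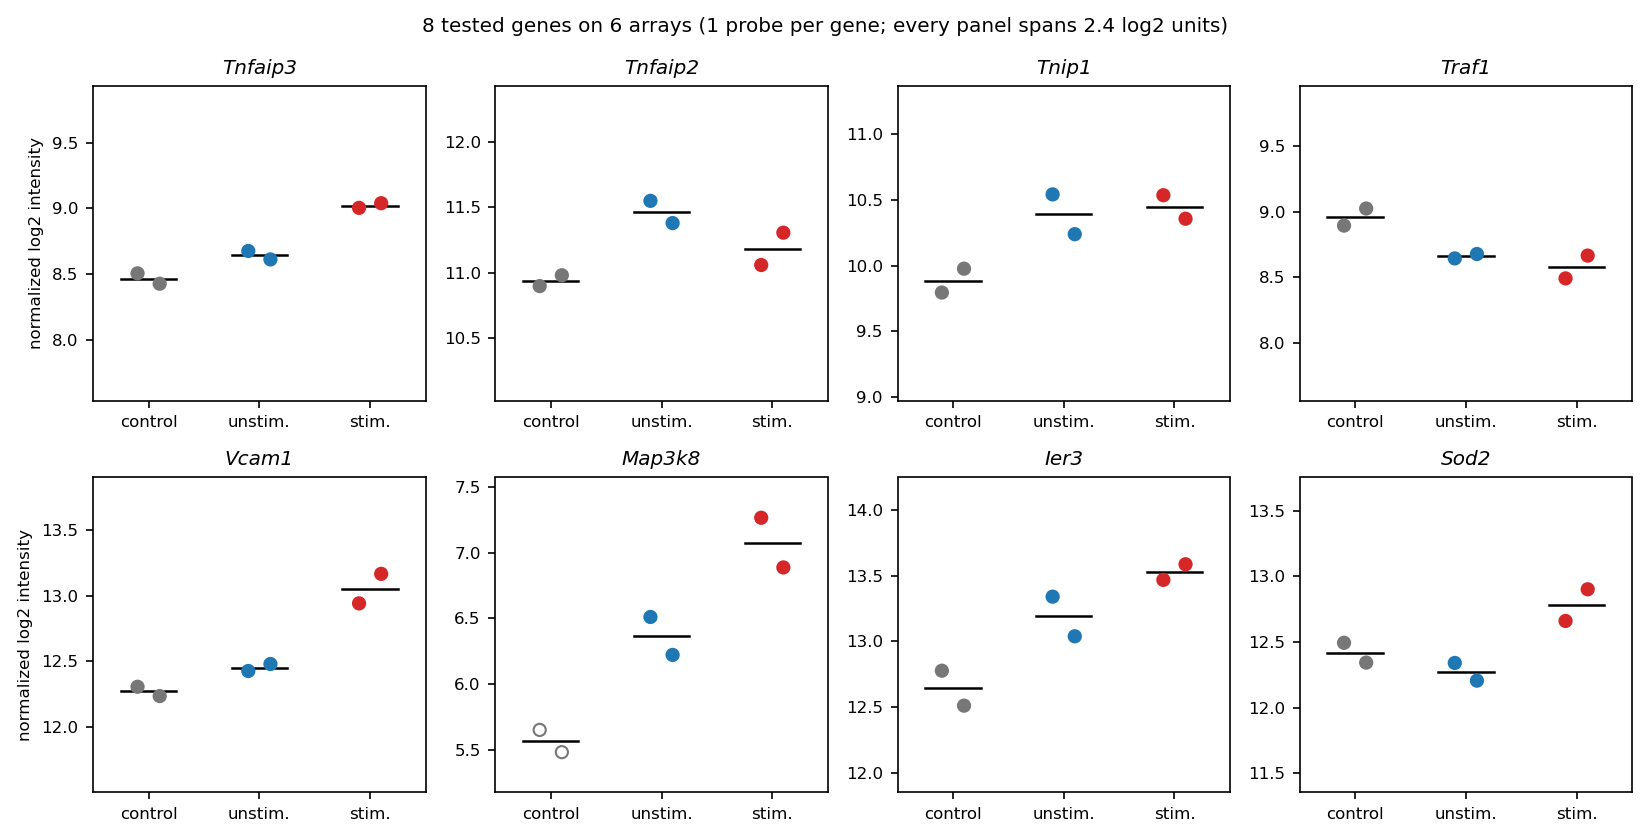
Normalized log2 intensity of the 8 tested genes on each array, with 1 probe per gene. Points are arrays, bars are means of 2 arrays, open points mark arrays on which the probe was not detected (Map3k8 on both control arrays), and every panel spans the same number of log2 units on its own range. Tnfaip3, Vcam1, Map3k8 and Ier3 step up from control to unstimulated to stimulated without overlap, while Traf1 is highest in control cells.

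**Figure D3:**
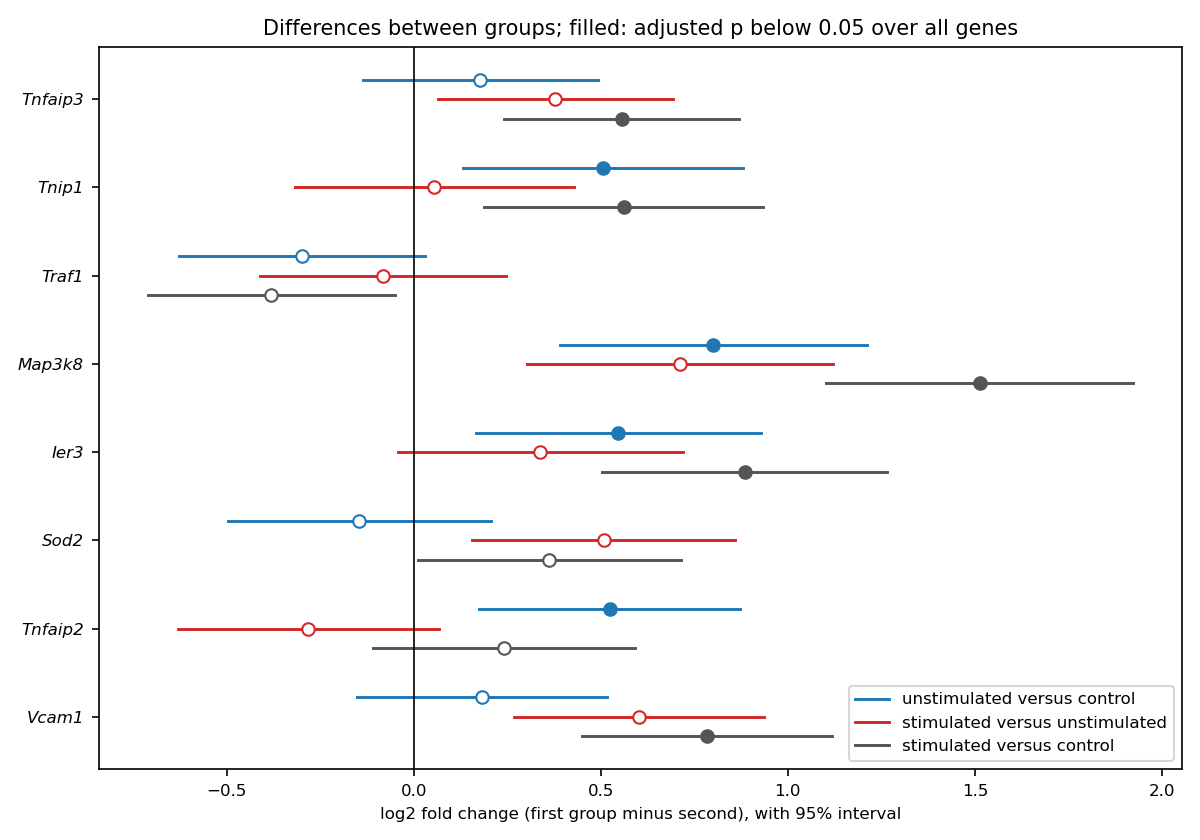
Log2 fold changes (points) with 95% intervals (lines) of the 8 tested genes in 3 comparisons, filled where the adjusted p over all genes is below 0.05. The filled points are all above 0, and none belongs to stimulated versus unstimulated cells. Values of Map3k8 against control rest on an undetected control group and are not a bound. The Map3k8 probe entered the test only through the serum-deprived arrays, so its filled points are not read as support.

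Among the feedback inhibitors, Tnfaip3 had raw signals of 407.6 and 461.4 in control cells, 515.4 and 460.1 in unstimulated cells and 510.2 and 595 in stimulated cells. The normalized log2 intensities were 8.50 and 8.43 in control cells, 8.68 and 8.61 in unstimulated cells and 9.004 and 9.039 in stimulated cells. The 3 groups did not overlap after normalization, although the raw signals of the unstimulated arrays overlapped those of both other groups. Tnfaip3 rose by 0.56 on the log2 scale in stimulated versus control cells (± 0.14 SE, n = 2 arrays per group, limma adjusted p = 0.0171). Stimulated minus unstimulated was 0.38 (95% interval 0.06 to 0.69, limma adjusted p = 0.504), and unstimulated minus control was 0.18 (-0.14 to 0.49, limma adjusted p = 0.360). The rise against control lost its call without any 1 of the 4 stimulated and control arrays (limma adjusted p 0.0532 to 0.0775) and with median scaling (0.0877).

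Tnip1, the A20 partner, was higher than control in both serum-deprived groups. Its brightest probe gave log2 intensities of 9.79 and 9.98 in control cells, 10.54 and 10.24 in unstimulated cells and 10.54 and 10.36 in stimulated cells, from raw signals of 914.8 to 1665.5. The unstimulated and stimulated groups overlapped, and both lay above the control group. In the fit, Tnip1 rose by 0.51 in unstimulated versus control cells (± 0.17 SE, limma adjusted p = 0.0460) and by 0.56 in stimulated versus control cells (± 0.17 SE, limma adjusted p = 0.0327), while stimulated minus unstimulated was 0.06 (95% interval -0.32 to 0.43). A further probe, detected on all arrays, was at 7.90 and 7.72, 8.32 and 8.08, and 8.25 and 8.67 in the same order, and in a limma fit over all detected probes it rose by 0.65 in stimulated versus control cells (adjusted p = 0.0395), while unstimulated minus control was 0.39 and did not pass (adjusted p = 0.164). The other 2 probes were detected on 2 arrays and on 0 arrays. The former was detected on 1 unstimulated and 1 stimulated array and on no control array, which favors a difference from control. Its values are thus given with no test: -0.32 for stimulated minus unstimulated, 0.58 for unstimulated minus control and 0.26 for stimulated minus control. The first rise lost its call without any 1 of the 4 arrays compared (limma adjusted p 0.0596 to 0.237), with the replicate number as a block (0.0580), with median scaling (0.0879), with a looser or no filter on dim probes (0.0888 and 0.0929) and in the fit over all detected probes (0.0629). The second lost it without any 1 of the 4 arrays compared (0.0531 to 0.150), with median scaling (0.144) and with a looser or no filter (0.0662 and 0.0677).

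Traf1, an adaptor of TNF receptors that helps cells resist death signals, was the one gene of the 8 with its highest level in control cells. Raw signals of its brightest probe were 511.8 and 658.4 in control cells, 506.6 and 479.8 in unstimulated cells and 378.3 and 473.7 in stimulated cells. On the log2 scale this probe was at 8.89 and 9.02 in control cells, 8.64 and 8.68 in unstimulated cells and 8.49 and 8.67 in stimulated cells, and its differences of -0.30 (unstimulated minus control, limma adjusted p = 0.153) and -0.38 (stimulated minus control, limma adjusted p = 0.0796) did not pass. Its second probe was at 8.48 and 8.70 in control cells, 7.88 and 7.67 in unstimulated cells and 8.15 and 7.95 in stimulated cells, with no overlap between any of the groups. In the fit over all detected probes it fell by 0.82 in unstimulated versus control cells (± 0.17 SE, limma adjusted p = 0.0109) and by 0.54 in stimulated versus control cells (± 0.17 SE, limma adjusted p = 0.0478). Both probes thus had the control arrays highest, and with the mean of both, Traf1 passed as lower in both comparisons (limma adjusted p = 0.0149 and 0.0310). For stimulated minus unstimulated, the 2 probes differed in sign (-0.08 and 0.27), and neither passed.

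Map3k8 encodes the kinase TPL2 (also called COT), which is held inactive by the NF-kB precursor encoded by Nfkb1 and activates MEK when IKK releases it. It was read at a low signal. Raw signals were 117.9 and 119.9 in control cells, where the probe was not detected (detection p 0.0139 and 0.0128), 170.4 and 142.9 in unstimulated cells and 201.9 and 185.1 in stimulated cells. Log2 intensities were 5.65 and 5.48, 6.51 and 6.22, and 7.27 and 6.89 in the same order, with no overlap between groups. Against control cells, Map3k8 lay at least 1.65-fold higher in unstimulated cells (limma adjusted p = 0.0110) and at least 2.70-fold higher in stimulated cells (limma adjusted p = 0.000649). The lower end is the lowest detected signal of the control arrays or the probe's own, whichever was higher. The probe entered the test only through the serum-deprived arrays, which favors these differences, so their p-values and calls are not read as support. Stimulated minus unstimulated was 0.71 (± 0.18 SE, 95% interval 0.30 to 1.12, limma adjusted p = 0.285). The rise in unstimulated cells lost its call without unstimulated replicate 1 (limma adjusted p = 0.0791) or control replicate 2 (0.0609), and the rise in stimulated cells passed without any 1 of the 6 arrays. Leaving out an array does not remove the advantage given by the filter. The bounds hold for background-corrected values only. Without background correction, where both calls held, the log2 differences from control were 0.38 in unstimulated and 0.81 in stimulated cells, smaller than those bounds. The stimulated minus unstimulated difference was then 0.43, below that of Vcam1 (0.59) and Sod2 (0.50). The second Map3k8 probe was detected on no array.

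Ier3, an early response gene whose product modulates apoptosis, had raw signals of 7327.6 and 6875.6 in control cells, 10677.5 and 8198.2 in unstimulated cells and 9526.5 and 11848.1 in stimulated cells. Log2 intensities were 12.78 and 12.51, 13.34 and 13.04, and 13.47 and 13.59, so the 3 groups did not overlap after normalization. The raw signals of the unstimulated and stimulated arrays did overlap. Ier3 rose by 0.88 in stimulated versus control cells (± 0.17 SE, limma adjusted p = 0.00538), a call that held under all 18 alternatives tried. It rose by 0.55 in unstimulated versus control cells (± 0.17 SE, limma adjusted p = 0.0372), a call lost without any 1 of the 4 arrays compared (0.0519 to 0.202), with median scaling (0.136), with a looser or no filter (0.0739 and 0.0784) and in the fit over all detected probes (0.0518). Stimulated minus unstimulated was 0.34 (95% interval -0.04 to 0.72, limma adjusted p = 0.659).

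Sod2, the manganese superoxide dismutase of mitochondria, followed another order. Raw signals were 5968 and 6113.2 in control cells, 5443.1 and 4704.6 in unstimulated cells and 5390.3 and 7595.2 in stimulated cells. Log2 intensities were 12.49 and 12.34, 12.34 and 12.20, and 12.66 and 12.90. The unstimulated arrays were the lowest, touching the control group, and the stimulated arrays the highest. Stimulated minus unstimulated was 0.51 (± 0.16 SE, 95% interval 0.16 to 0.86, limma adjusted p = 0.408) and stimulated minus control was 0.36 (± 0.16 SE, limma adjusted p = 0.111). The latter passed without background correction (limma adjusted p = 0.0487) and with a trended, robust prior (0.0411).

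Vcam1, the adhesion molecule bound by the leukocyte integrin of Itga4 and Itgb1, was read by 4 probes. The brightest gave raw signals of 5259.5 and 5632.6 in control cells, 5820.3 and 5637.7 in unstimulated cells and 6568.2 and 8877.5 in stimulated cells. Log2 intensities were 12.31 and 12.24, 12.43 and 12.48, and 12.94 and 13.17, with no overlap between groups. Vcam1 rose by 0.78 in stimulated versus control cells (± 0.15 SE, limma adjusted p = 0.00514), and this call held without any 1 of the 6 arrays but not with median scaling (0.0522). Stimulated minus unstimulated was 0.60 (± 0.15 SE, 95% interval 0.27 to 0.94, limma adjusted p = 0.262). That difference passed without background correction (0.0452) and with a trended, robust prior (0.0399). Unstimulated minus control was 0.18 (limma adjusted p = 0.379).

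A dimmer Vcam1 probe was detected on the stimulated arrays (raw signals 120.6 and 133.4), and not on the unstimulated arrays (98.3 and 93.9) or the control arrays (108.9 and 120). It entered the test only through the stimulated arrays, which favors a difference, so its values are given with no test. The stimulated arrays lay at least 1.43-fold above the unstimulated and at least 1.26-fold above the control arrays after background correction. Another probe, detected on all arrays at raw signals of 130.2 to 155.8, had differences of 0.05, 0.08 and 0.13 for stimulated minus unstimulated, unstimulated minus control and stimulated minus control. The remaining probe was detected on no array.

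Icam1, the other adhesion molecule of the group and a ligand of leukocyte integrins, had 1 probe, with raw signals of 79.3 and 90.8 in control cells, 97.4 and 86.3 in unstimulated cells and 84.2 and 87.1 in stimulated cells. Its detection p ranged from 0.188 to 0.704, so the signal was not above that of the negative controls in any of the 3 groups, and the groups overlapped. With a single probe this gives no level and no comparison for Icam1.

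Tnfaip2, a TNF-induced gene whose product takes part in forming membrane nanotubes, was read by 3 probes detected on all arrays. The brightest gave raw signals of 1921.8 and 2361 in control cells, 3244.1 and 2718.3 in unstimulated cells and 1880.5 and 2560.9 in stimulated cells. Its log2 intensity was 10.90 and 10.98 in control cells, 11.55 and 11.38 in unstimulated cells and 11.06 and 11.31 in stimulated cells, the only tested gene of the 8 whose unstimulated group stood highest. It rose by 0.52 in unstimulated versus control cells (± 0.15 SE, limma adjusted p = 0.0319), and stimulated minus unstimulated was -0.28 (95% interval -0.63 to 0.07, limma adjusted p = 0.686). The other probes gave 0.26 and 0.23 for unstimulated minus control and 0.08 and 0.09 for stimulated minus unstimulated, and neither passed. With the mean of the 3 probes, Tnfaip2 did not pass (limma adjusted p = 0.103). The call was also lost without any 1 of the 4 arrays compared (0.0717 to 0.154), with median scaling (0.0794) and with a looser or no filter (0.0669 and 0.0641).

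**Figure D4:**
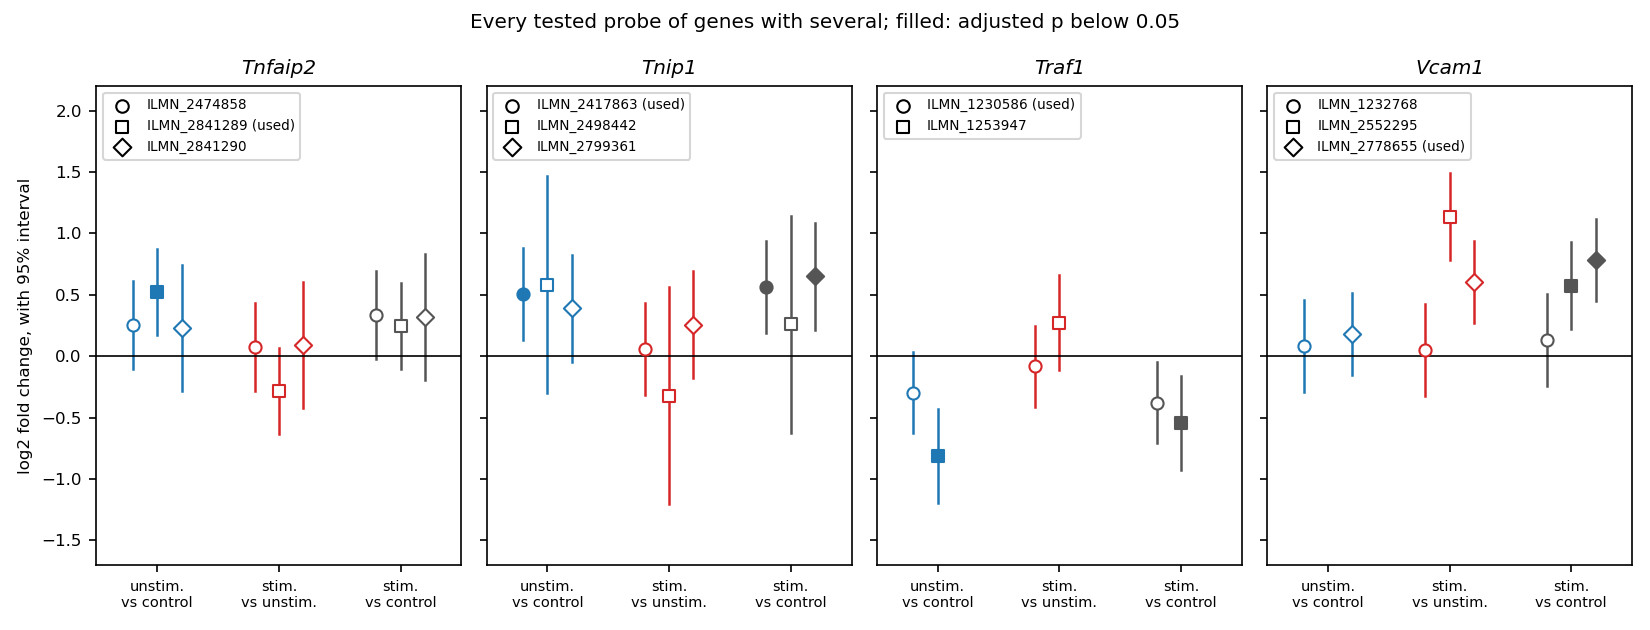
Log2 fold changes with 95% intervals for every tested probe of the 4 genes with more than 1, filled where the adjusted p is below 0.05. The brightest probe of a gene was fitted with all genes and the others with all detected probes, and points where neither group was detected are left out. Probes of Traf1 lie below 0 against control, and the probes of Tnfaip2 and Vcam1 differ in size or sign. The Vcam1 probe drawn as squares was detected on the stimulated arrays alone, and its points are not a bound. It entered the test only through those arrays, so its fill and intervals are not read as a test. The Tnip1 probe drawn as squares was detected on no control array, so its points and intervals against control are not read as a bound or a test.

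Taking the 3 groups in order, 4 of the 8 genes (Tnfaip3, Vcam1, Map3k8 and Ier3) had control arrays below unstimulated arrays below stimulated arrays without overlap, beside 5.31% of all tested genes. Map3k8 entered the test only through the serum-deprived arrays, which favors control arrays being lowest, so its place is not read as support. Sod2 had unstimulated arrays below control arrays below stimulated arrays, beside 0.719% of all genes, and Tnfaip2 had control below stimulated below unstimulated, beside 5.88%. The order of Sod2 rests on a near tie, with the highest unstimulated value at 12.3396 and the lowest control value at 12.3423. Its raw signals on the stimulated arrays overlapped those of both other groups. Tnip1 and Traf1 had groups that overlapped. These orders were read after the values were seen. Map3k8 was the only gene of the 8 whose group means spanned 1 log2 unit or more, with a control group that was not detected. Without background correction its stimulated minus control difference was 0.81, which does not reach 1 unit. The 3 genes closest to Map3k8 over the 6 background-corrected arrays, by Euclidean distance of centred log2 intensities, were Susd6 (0.36), Acad12 (0.37) and Tlr2 (0.37). The median distance over all genes was 1.62.

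Components of the pathway around these targets were counted from lists, to be read beside the shares of all genes called higher given above (0.0786% for stimulated versus unstimulated, 17.2% for unstimulated versus control and 15.9% for stimulated versus control cells). The lists were chosen with earlier results of these data known, so their counts are a description and not support. Of 10 tested NF-kB subunits and IkB proteins, 1 rose in stimulated versus unstimulated cells (limma, adjusted p below 0.05), Nfkbiz, a nuclear cofactor of NF-kB, by 1.87 on the log2 scale. At an unadjusted p below 0.05 by limma, 2 of the 10 lay higher in that comparison. Against control cells, 2 rose and 1 fell in unstimulated cells: Nfkbiz by 1.14 and Nfkbie, an IkB protein, by 0.82, and Nfkbid at -0.95 (limma adjusted p = 0.0457). In stimulated versus control cells 3 rose, Nfkbiz (3.01), Nfkbie (1.17) and Bcl3 (0.85). Of 23 genes that carry the signal from receptors to IKK, 0 were called in stimulated versus unstimulated cells by limma, with 2 higher at an unadjusted p below 0.05. Against control cells, 5 of the 23 rose in unstimulated and 6 in stimulated cells and 0 fell. Ticam1, detected on no control array, entered the test through the serum-deprived arrays, and without it 4 and 5 of 22 rose. Those named are Traf2 (0.75 and 1.03), Birc3 (0.70 and 1.31), Irak2 (0.58 and 0.74) and Traf5 (0.56 and 0.57, detected on 1 of 2 control arrays). Birc3 and Traf2 encode a ubiquitin ligase and the adaptor that bring TNF receptors into contact with this pathway.

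Of 13 other brakes on the pathway, Zc3h12a (Regnase-1), which cuts mRNAs of inflammatory genes, rose by 1.79 in stimulated versus unstimulated cells and by 1.88 versus control cells. Pdlim2, which helps end NF-kB activity in the nucleus, rose by 1.51 in unstimulated and by 1.45 in stimulated versus control cells. Sigirr, an inhibitory receptor of the IL-1 receptor family detected on 1 of 2 control arrays, rose by 1.41 in unstimulated versus control cells. Between stimulated and unstimulated cells Sigirr was at -0.94 (limma adjusted p = 0.151) and did not pass. In that comparison 3 of the 13 had an unadjusted p below 0.05: Zc3h12a, higher, and Sigirr and Tnip2 (-0.39, named after its value was seen), lower. The 3.78% of all genes at this threshold covers higher genes alone, and the share of lower genes is not given here. By adjusted p no brake was lower in any of the 3 comparisons. Of 6 tested partners of the 10 genes, 0 were called in stimulated versus unstimulated cells by limma, with 1 higher at an unadjusted p below 0.05. Nod1, the bacterial sensor that signals through the Ripk2 protein, rose by 1.10 in unstimulated and by 1.68 in stimulated versus control cells, and Itgb7 fell by 1.49 and 1.51. Itgb7 was detected on 1 of 2 stimulated arrays, and its means of 5.66 and 5.63 in the serum-deprived groups lay near the lowest detected signals. Of 8 tested relatives, 0 were called in stimulated versus unstimulated cells by limma, with 1 higher at an unadjusted p below 0.05. Sod3, the secreted superoxide dismutase, rose by 0.91 and 1.19 versus control (detected on 1 of 2 control arrays), the only relative called.

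Of 23 other textbook NF-kB targets that were tested, 3 rose and 0 fell in stimulated versus unstimulated cells: Cxcl1 (2.44), Fas (1.44) and Lcn2, at least 4.99-fold. Lcn2 entered the test only through the stimulated arrays, being detected on no other, and without it 2 of 22 rose. The median log2 fold change was 0.43 with Lcn2 and 0.31 without it. By limma, 12 of the 23 had an unadjusted p below 0.05 in this comparison, all higher and Lcn2 among them, beside 3.78% of all genes higher. This list too was chosen with earlier results of these data known, so the count is a description only. In unstimulated versus control cells 6 rose and 3 fell (median 0.07), with Ccl5 (2.37), Tapbp (2.05), Psmb9 (1.86) and Mmp9 (1.06) among the rises. In stimulated versus control cells 11 rose and 1 fell (median 0.55), led by Ccl5 (3.51), Tapbp (2.53), Cxcl1 (2.42) and Lcn2, at least 4.40-fold. Over the 21 of these genes detected in both groups, 10 rose and 1 fell. All values in these lists are from limma with 2 arrays per group, and only up to 4 called genes per list and comparison are named.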

How the data were processed

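The authors deposited probe signals as intensity on a linear scale, not normalized, and a detection p-value for each probe, per the file headers. The authors also deposited log2 values, which equalled quantile-normalized log2 signals without background correction to within 0.00203. RNA was amplified to biotin-labelled cRNA, per the labels' protocols, and the sources used here do not name the software that summarised the beads. Groups came from sample titles. Signals were corrected and quantile-normalized with neqc in R 4.3.3 and limma 3.58.1 (normexp, offset 16). A probe was tested at a detection p below 0.01 on at least 2 of 6 arrays. Of 45281 probes, 34885 had 1 gene symbol, 18 several and 10378 none. The brightest tested probe stood for each of 8905 genes. One limma model with a mean per group (3 residual and 6.00 prior degrees of freedom) gave all comparisons, with Benjamini-Hochberg adjustment over all genes. Other probes of a gene came from a fit over all 16355 tested probes. Symbols were updated through RefSeq, which also supplied the promoter windows. Array position followed the groups and cannot be told apart from them. The number of arrays limits precision. The steps were tested on simulated data. The genes and lists were chosen with earlier results of these data known. Named genes are all 10, up to 4 called genes per further list and comparison, and the 3 genes nearest to any of the 10 whose group means span 1 log2 unit. Alternatives changed the background correction, scaling, filter, probe rule, prior, arrays in the fit and replicate block.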

Additional observations from a re-analysis of the deposited data

How the results depend on the processing

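Over 18 alternatives, the number of the NF-kB targets called in stimulated versus unstimulated cells was 0, except for 1 (Vcam1) without background correction, with the deposited log2 table, and with a trended, robust prior. In unstimulated versus control cells it was 4, but 1 with median scaling, with no filter and with a looser filter, 2 in the fit over all detected probes, 3 with detection on all 6 arrays (which drops Map3k8), 3 with the replicate block, and 0 to 4 when 1 array was left out. With the mean of a gene's probes the 4 were a different set, 3 higher and 1 lower, with Traf1 in and Tnfaip2 out. In stimulated versus control cells it was 5, but 2 with median scaling, 4 with detection on all 6 arrays and with a looser or no filter, 6 (Sod2 added) without background correction, with the deposited table and with a trended, robust prior, 6 with the mean of a gene's probes (Traf1 added, lower), and 3 to 5 when 1 array was left out. Over all genes, stimulated versus unstimulated cells gave 7 calls, and 44 without background correction or with the deposited table, 36 with an offset of 50, 15 with median scaling, 17 with detection on all 6 arrays, 43 with a trended, robust prior and 4 to 8 without 1 array. The fit over all detected probes called 4216 probes in unstimulated versus control and 4021 in stimulated versus control cells, beside 2746 and 2588 genes, and leaving out 1 array gave 1365 to 2830 and 1553 to 2323 genes. With median scaling the median of all genes was -0.13 in stimulated versus unstimulated and -0.11 in stimulated versus control cells, in place of -0.01 and -0.01, and relative to that median Vcam1 was at 0.58 and 0.67 and Tnfaip3 at 0.37 and 0.59. With this scaling, calls split into 8 higher and 7 lower in place of 7 and 0, and into 960 higher and 1291 lower in place of 1417 and 1171. The sign turned only for values that did not pass. In stimulated versus unstimulated cells, Tnip1 was at -0.080 with median scaling (0.046 relative to the median of all genes, beside 0.056 in the main setting), -0.00235 with the mean of its probes and -0.10 to 0.21 when 1 array was left out, below 0 in the fits lacking unstimulated replicate 2 or stimulated replicate 1. Traf1 was at 0.10 with the mean of its probes and -0.17 to 0.00467 when 1 array was left out, above 0 only in the fit lacking stimulated replicate 1. Vcam1 in unstimulated versus control cells was at -0.10 with the mean of its probes. For the others the cause was not tested. Labels number the replicates, but same-numbered arrays did not deviate together (correlations -0.02, -0.04 and -0.01 between groups), so the numbers are not taken as pairs. With the number as a block, 0, 3 and 5 of the 8 genes were called in the 3 comparisons (stimulated versus unstimulated, unstimulated versus control, stimulated versus control), and 7, 2595 and 2465 of all genes.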
